A study of Mus musculus with 24 samples.

Results

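The genes followed here make cholesterol or hold its synthesis back: Hmgcs1, Idi1, Fdps, Fdft1, Sqle, Lss and Cyp51, which encode enzymes of the mevalonate and sterol pathway, and Insig1, which encodes an inhibitor of it. They were chosen by symbol, and all 8 were found once each among the 55414 genes of the deposited count table, of which 25030 had a count in any library. No receptor for cholesterol uptake is among the 8, so uptake is described from a list of 14 other genes. The cells were Tconv CD4+ T cells (CD4+ CD25-), isolated with magnetic beads from the spleen of conplastic mice, in which a C57BL/6J nuclear genome is combined with the mitochondrial DNA of C57BL/6J (mtDNA B6) or of the NZB strain (mtDNA NZB). Cells of each haplotype were left resting or were activated for 72 h with IL-2 and beads bearing antibodies to CD3 and CD28, and each of the 4 groups held 6 libraries. Males aged 2 to 3 months served in most of the study's work, but age and sex are not tied to single libraries, nor is it stated whether 1 animal gave 1 library, so the p-values measure the spread between these libraries, which may be technical.

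Cholesterol is built from acetyl-CoA. HMGCS1 joins acetyl-CoA and acetoacetyl-CoA into HMG-CoA, from which mevalonate is made. IDI1 acts on the isoprenoid units that FDPS joins into farnesyl diphosphate. FDFT1 joins farnesyl units into squalene, and SQLE and LSS turn squalene into lanosterol. CYP51 removes a methyl group from lanosterol on the way to cholesterol. The transcription factor SREBP2 switches on most of these genes when membrane cholesterol is low, whereas INSIG1 holds SREBP and its escort SCAP in the endoplasmic reticulum when sterol is plentiful and is itself an SREBP target. T cells that have been activated grow and divide and need sterol for new membrane.

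The promoters of these genes are shown because several members moved together. Promoter sequences from RefSeq (GRCm38.p6, 250 bases before to 50 bases after the start of transcription) were held for 5 of the 8 members, Hmgcs1, Idi1, Lss, Cyp51 and Insig1, and each was placed on GRCm39 by 1 exact match. Sqle, Fdps and Fdft1 had no entry. The letters TCACNCCA, the core of a sterol response element, CCAAT, the box bound by the SREBP partner NF-Y, and GGGCGG, the GC box bound by SP1, were searched on both strands. They were found in 4.34%, 37.4% and 35.9% of all 32544 promoters. CCAAT and GGGCGG stood in all 5 member promoters, and TCACNCCA stood in 1 of the 5, that of Hmgcs1, and in a promoter of 4 of the 38 other pathway genes with an entry, Srebf2, Msmo1, Stard3 and Apoe. In the following 30-base windows, read 5′ to 3′ on the strand of the gene, capitals mark the matched letters (ATTGG is CCAAT on the other strand). The first 3 hold the sterol response letters, in the member gene, in the gene for the factor that binds them and in the sterol oxidase gene Msmo1.
Hmgcs1, chr13:120151739-120151768, plus strand, centred 133 bases before the start: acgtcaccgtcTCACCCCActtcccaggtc
Srebf2, chr15:82031297-82031326, plus strand, centred 158 bases before the start: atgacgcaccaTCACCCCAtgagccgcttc
Msmo1, chr8:65186771-65186800, minus strand, centred 173 bases before the start: tctcactattcTCACTCCAtccgcgcagcc
The next 4 hold the NF-Y box of the other members.
Idi1, chr13:8935585-8935614, plus strand, centred 43 bases before the start: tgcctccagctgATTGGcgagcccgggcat
Lss, chr10:76367365-76367394, plus strand, centred 60 bases before the start: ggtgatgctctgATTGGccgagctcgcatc
Cyp51, chr5:4154709-4154738, minus strand, centred 27 bases before the start: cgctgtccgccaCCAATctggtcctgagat
Insig1, chr5:28276182-28276211, plus strand, centred 214 bases before the start: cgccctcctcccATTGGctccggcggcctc
A match of letters is a description of the sequence and not a binding site.

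RNA was measured by bulk MARS-seq. This assay reads polyadenylated RNA from its 3′ end, and a unique molecular identifier (UMI) lets amplified copies be counted as 1 molecule. Levels are UMI counts scaled to library size by TMM (CPM), and because they are read at the 3′ end they are compared between libraries and not between genes. Total UMI counts ran from 2157475 to 6449395 in 22 libraries. Resting mtDNA NZB replicate 2 held 51409 UMI counts, where 3 counts equal 50.8 CPM, and activated mtDNA NZB replicate 1 held 641467. In the other 22 libraries 3 counts equal 0.44 to 1.37 CPM, and such limits cover counting error only. T cell markers were at 2261 to 4340 CPM in sum in every library, and Il2ra, which encodes the IL-2 receptor alpha chain of activated T cells, was at 0 to 5.71 CPM at rest and 42.0 to 179.7 CPM after activation. Other cells left RNA as well. The summed level of 5 B cell markers was 83.5 to 1218 CPM over the groups, that of 5 myeloid markers 457 to 2806 CPM at rest and 10.8 to 109 CPM after activation, and that of 8 neutrophil and granulocyte precursor markers 406 to 20320 CPM at rest and 7.43 to 178 CPM after activation. Markers of CD8 T cells (Cd8a and Cd8b1) and of platelets (3 genes) went up with activation, the first from a median sum of 68.6 to 276.8 CPM with mtDNA B6 and from 51.9 to 164.5 CPM with mtDNA NZB, and the second from 14.6 to 139.6 CPM and from 16.4 to 97.8 CPM. Their part in the levels of the synthesis genes was not tested. In bulk RNA, fewer cells of a type and less RNA per cell cannot be told apart.

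Cells of both haplotypes held more Hmgcs1, Fdps and Sqle mRNA after activation and less Insig1 mRNA, and Cyp51 rose in mtDNA B6 cells. Of the 8 members, 6 had enough counts to be tested. For mtDNA B6, 4 passed upward and 1 downward at an adjusted p of at most 0.05, where 22.4% of all 10566 genes tested passed upward and 24.5% downward. For mtDNA NZB, 3 members passed upward and 1 downward, where 25.2% and 28.4% of genes did so. The median log2 fold change of the 6 tested members was 1.27 with mtDNA B6 and 0.54 with mtDNA NZB, and that of all genes was -0.03 and -0.06. Adjusted p-values come from the quasi-likelihood test of edgeR, adjusted by Benjamini-Hochberg across the whole table, unless another tool is named, and each fold change is given with its standard error (SE). The activation comparison and the haplotype comparison of the same cells share libraries and are not independent. For mtDNA B6, rest and activation also nearly coincided with sets of libraries that are described below.

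**Figure D1:**
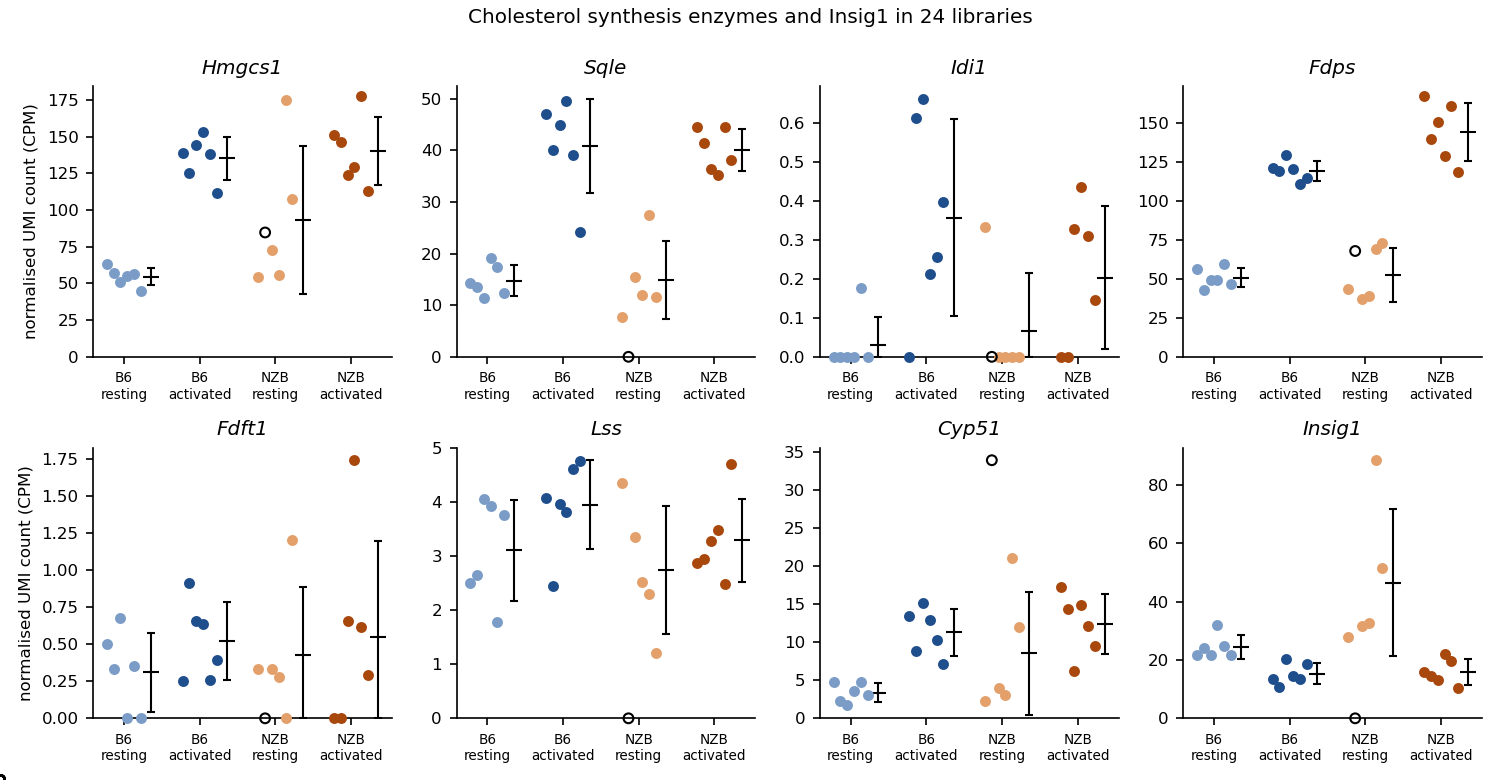
Normalised UMI counts (CPM, linear axis from 0) of the 8 genes, 1 point per library in replicate order within each of the 4 groups of 6. Black bars give the mean and SD without the open circle, resting mtDNA NZB replicate 2 (51409 UMI counts), and stop at 0. Fdps and Sqle lie higher after activation in both haplotypes, Insig1 lies lower, and Idi1 and Fdft1 stay under 2 CPM.

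Hmgcs1 (chromosome 13, 120151915 to 120170470, GRCm39, plus strand), the gene for the first committed step before mevalonate, was at 45.1 to 63.1 CPM in resting mtDNA B6 cells (median 55.6) and at 111.7 to 153.2 CPM after activation (median 138.5). The groups did not overlap, and the gene rose 2.47-fold (log2 fold change 1.30, SE 0.20, adjusted p = 8.3e-06). The resting mtDNA NZB libraries spread from 54.4 to 174.6 CPM (median 78.8, or 72.9 without replicate 2) and the activated ones from 112.7 to 177.7 CPM (median 137.7). These groups overlapped because of resting replicate 5, and the rise was 1.52-fold (log2 fold change 0.60, SE 0.21, adjusted p = 0.016). The call was lost without resting mtDNA NZB replicate 1 (adjusted p = 0.0538) or replicate 4 (adjusted p = 0.0554) and in the fit of the 12 mtDNA NZB libraries alone (adjusted p = 0.063).

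Fdps (chromosome 3, 89000888 to 89019213, minus strand), whose enzyme makes farnesyl diphosphate, the branch point to sterols, ubiquinone and prenylated proteins, was at 43.0 to 59.2 CPM in resting mtDNA B6 cells (median 49.1) and at 110.8 to 129.5 CPM after activation (median 119.4). With mtDNA NZB it was at 37.3 to 73.1 CPM at rest (median 55.6, or 43.4 without replicate 2) and at 118.3 to 166.8 CPM after activation (median 144.9). Activated libraries lay above resting libraries without overlap in both haplotypes, although resting mtDNA NZB replicate 2 held only 4 UMI counts of the gene. The rise was 2.35-fold in mtDNA B6 cells (log2 fold change 1.23, SE 0.14, adjusted p = 1.33e-07) and 2.73-fold in mtDNA NZB cells (log2 fold change 1.45, SE 0.15, adjusted p = 2.02e-08).

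Sqle (chromosome 15, 59186869 to 59203043, plus strand) encodes squalene epoxidase, the first oxygen-using enzyme of the pathway. It was at 11.5 to 19.2 CPM in resting mtDNA B6 cells (median 13.9) and at 24.2 to 49.6 CPM after activation (median 42.5). In mtDNA NZB cells it was at 0 to 27.5 CPM at rest (median 11.8), the 0 being the library of 51409 UMI counts, and at 35.3 to 44.6 CPM after activation (median 39.8). The groups did not overlap in mtDNA B6 cells, nor in mtDNA NZB cells apart from that library, whose 0 allows up to 50.8 CPM. The rise was 2.78-fold in mtDNA B6 cells (log2 fold change 1.47, SE 0.21, adjusted p = 3.81e-06) and 2.76-fold in mtDNA NZB cells (log2 fold change 1.46, SE 0.23, adjusted p = 9.52e-06).

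Cyp51 (chromosome 5, 4123416 to 4154751, minus strand), the lanosterol demethylase gene, was at 1.69 to 4.79 CPM in resting mtDNA B6 cells (median 3.27) and at 7.13 to 15.2 CPM after activation (median 11.6). These groups did not overlap, and the gene rose 3.27-fold (log2 fold change 1.71, SE 0.41, adjusted p = 0.00138). The mtDNA NZB libraries held 2.34 to 33.9 CPM at rest, where the highest value rests on 2 UMI counts in replicate 2, and 6.22 to 17.3 CPM after activation. These groups overlapped and the log2 fold change of 0.49 (SE 0.42) did not pass the test (adjusted p = 0.337). Without resting mtDNA NZB replicate 5 the log2 fold change was 1.10 and passed (adjusted p = 0.0237).

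Lss (chromosome 10, 76367298 to 76392976, plus strand), the gene for lanosterol synthase, was at 1.77 to 4.05 CPM in resting mtDNA B6 cells and at 2.45 to 4.75 CPM after activation. With mtDNA NZB it was at 0 to 4.34 CPM at rest and at 2.48 to 4.69 CPM after activation. The groups overlapped in both haplotypes, and the log2 fold changes of 0.38 (SE 0.26, adjusted p = 0.244) and 0.30 (SE 0.30, adjusted p = 0.405) did not pass the test. Lss had few counts, with 40 to 84 UMI counts per group.

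Idi1 (chromosome 13, 8935537 to 8942487, plus strand) and Fdft1 (chromosome 14, 63382189 to 63417027, minus strand) did not pass the filter on low counts. Idi1, the isopentenyl diphosphate isomerase gene, had 1 UMI count in all resting mtDNA B6 libraries and 7 in the activated ones, and 1 and 4 in the mtDNA NZB libraries, with at most 2 in any library. Fdft1, the squalene synthase gene, had 7 UMI counts at rest and 11 after activation with mtDNA B6, and 6 and 10 with mtDNA NZB, with at most 4 in any library. Most libraries lay at or under the limit of 3 counts for both genes, so no fold change is given. Neither a difference nor its absence is read from these counts. The last 1000 bases of Fdft1 overlap Ctsb on the other strand, whereas those of Idi1 overlap no other annotated gene. The strand used in counting is not stated, and where a gene shares its 3′ end with another, reads of both cannot be told apart without strand. Among the tested members this holds for Hmgcs1 (Nim1k), Sqle (Washc5), Lss (the long noncoding Gm15343) and Cyp51 (Akap9), and not for Fdps and Insig1.

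Insig1 (chromosome 5, 28276315 to 28283668, plus strand), the sterol-sensing brake on SREBP, moved the other way. It was at 21.6 to 32.1 CPM in resting mtDNA B6 cells (median 23.0) and at 10.7 to 20.5 CPM after activation (median 14.1). In mtDNA NZB cells the 5 deep resting libraries held 28.0 to 88.4 CPM (median 32.7) and the activated libraries 10.3 to 22.2 CPM (median 15.1), while replicate 2 had no count, which allows up to 50.8 CPM. Apart from that library, resting and activated libraries did not overlap in either haplotype. Activation changed it by -0.68 on the log2 scale with mtDNA B6 (SE 0.26, adjusted p = 0.0331) and by -1.52 with mtDNA NZB (SE 0.27, adjusted p = 4.39e-05). The fall in mtDNA B6 cells lost its call without any of 6 single libraries (activated mtDNA B6 replicates 1, 2, 4 and 5 and resting mtDNA B6 replicates 4 and 6, adjusted p 0.0514 to 0.0783). It was also lost with the library set, explained below, as a term (log2 fold change -0.52, adjusted p = 0.268), in DESeq2 (adjusted p = 0.061) and in a second deposited count table (adjusted p = 0.0563).

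The other enzymes of the pathway were 15 genes, all of which were tested. In each haplotype 10 of the 15 rose and 1 fell, where 22.4% of all genes rose and 24.5% fell with mtDNA B6 and 25.2% and 28.4% with mtDNA NZB, with a median log2 fold change of 0.74 with mtDNA B6 and 0.62 with mtDNA NZB. Pmvk, the phosphomevalonate kinase gene, rose by 1.08 on the log2 scale in mtDNA B6 cells (SE 0.13, adjusted p = 3.89e-07) and by 1.22 in mtDNA NZB cells (SE 0.14, adjusted p = 1.52e-07). The gene that fell was Ggps1, which encodes the synthase that turns farnesyl diphosphate toward geranylgeranyl groups and away from sterols. Its log2 fold change was -0.78 (SE 0.20, adjusted p = 0.0022) and -0.97 (SE 0.21, adjusted p = 0.000413). Tm7sf2, for a sterol reductase, did not pass in either haplotype (-0.05, SE 0.24, adjusted p = 0.891, and 0.22, SE 0.26, adjusted p = 0.765).

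Msmo1, the sterol oxidase gene with the sterol response letters shown above, had a log2 fold change of 0.93 in mtDNA B6 cells (SE 0.26, adjusted p = 0.00458) and of -0.02 in mtDNA NZB cells (SE 0.28, adjusted p = 0.966). The difference of the 2 responses of Msmo1 did not pass (-0.95, SE 0.38, unadjusted p = 0.0183, adjusted p = 0.259).

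**Figure D2:**
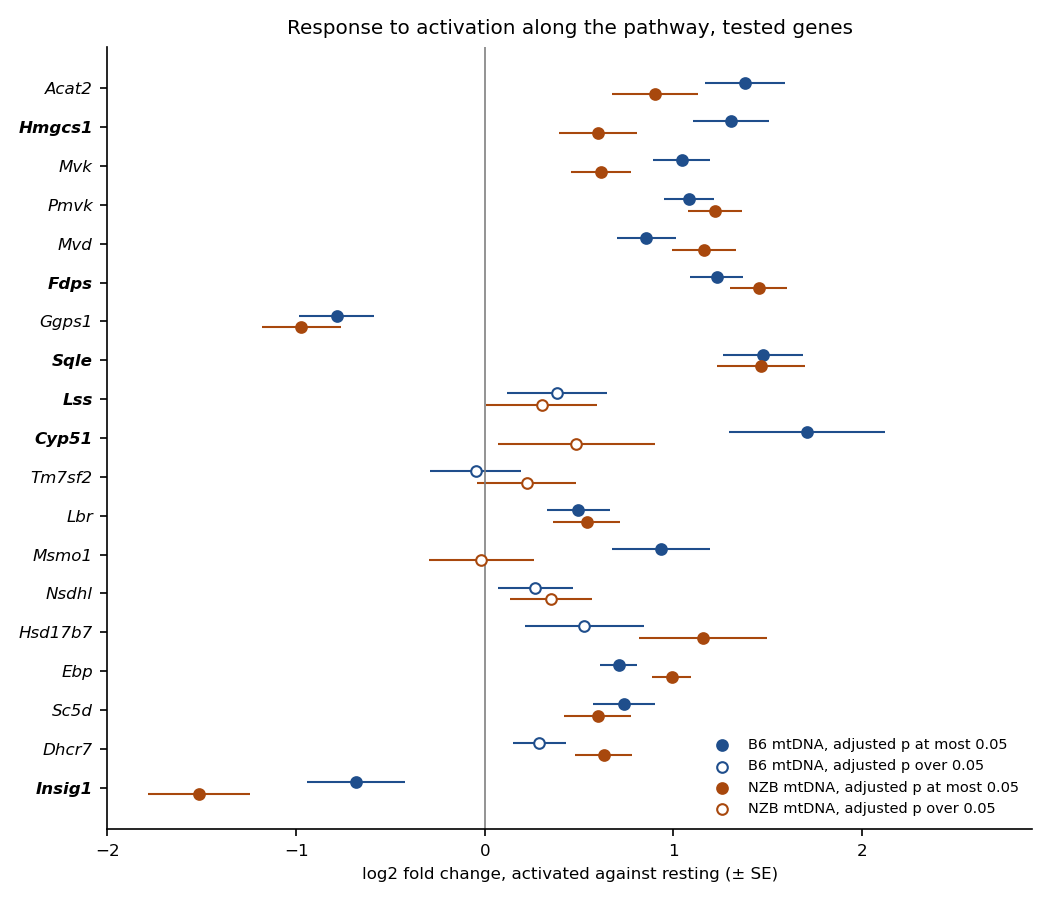
Log2 fold change of activated against resting cells (x axis, ± SE) for the 6 tested members (bold) and 13 of the 15 other enzymes in the order of the pathway, with Insig1 last, in mtDNA B6 (blue) and mtDNA NZB (orange) cells. Filled points have an adjusted p of at most 0.05; most enzymes lie to the right of 0, whereas Ggps1 and Insig1 lie to the left in both haplotypes.

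Few regulators passed. Of the 12 tested genes of the SREBP control list, 2 passed upward and 1 downward for mtDNA B6, and 1 upward and 2 downward for mtDNA NZB, with median log2 fold changes of 0.07 in both. The shares of all genes were 22.4% upward and 24.5% downward, and 25.2% and 28.4%. Srebf2, the gene for SREBP2, was at 234 to 339 CPM in resting and 351 to 426 CPM in activated mtDNA B6 cells and rose by 0.46 on the log2 scale (SE 0.12, adjusted p = 0.00377), a call lost with the library set as a term (0.35, adjusted p = 0.0909). For mtDNA NZB its log2 fold change was 0.00 (SE 0.13, adjusted p = 0.996). Srebf1, for the form that mainly serves fatty acid synthesis, did not pass for mtDNA B6 (-0.16, SE 0.11, adjusted p = 0.264) and fell for mtDNA NZB (-0.49, SE 0.12, adjusted p = 0.000921). Scap, the escort gene, did not pass in either (0.03, SE 0.09, and 0.15, SE 0.09, adjusted p = 0.787 and 0.168). Insig2, the second Insig gene, rose for mtDNA B6 (0.57, SE 0.21, adjusted p = 0.0255), a call lost without activated replicate 4 or 5 or resting replicate 5 (adjusted p 0.0505 to 0.0755), in the second table (adjusted p = 0.0663) and with the library set (adjusted p = 0.0616), and did not pass for mtDNA NZB (0.30, SE 0.22, adjusted p = 0.267). Mbtps1, which encodes the first of the proteases that release SREBP, fell in both (-0.49, SE 0.10, adjusted p = 0.000319, and -0.59, SE 0.11, adjusted p = 4.51e-05). Nfyb, for an NF-Y subunit, did not pass for mtDNA B6 (0.11, SE 0.15, adjusted p = 0.556) and rose for mtDNA NZB (0.52, SE 0.15, adjusted p = 0.00644), and Sp1 passed in neither (-0.19, SE 0.34, and -0.62, SE 0.38, adjusted p = 0.679 and 0.172).

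Uptake genes were mixed. Of 12 tested genes of uptake and intracellular transport, 5 passed upward and 5 downward for mtDNA B6, and 3 upward and 5 downward for mtDNA NZB, against 22.4% and 24.5% of all genes and 25.2% and 28.4%. The median log2 fold changes were -0.19 and -0.15. Stard4, whose protein carries sterol between membranes, rose by 1.49 on the log2 scale in mtDNA B6 cells (SE 0.24, adjusted p = 1.67e-05) and by 0.66 with mtDNA NZB (SE 0.25, adjusted p = 0.0274), and the second call was lost without activated mtDNA NZB replicate 3 or resting replicate 1, 3 or 4 (adjusted p 0.0535 to 0.0923), over the 12 libraries compared alone (adjusted p = 0.0939) and in DESeq2 (adjusted p = 0.0647). Lrp8, a lipoprotein receptor gene, rose by 0.76 (SE 0.29, adjusted p = 0.0332) and 0.95 (SE 0.32, adjusted p = 0.0143), and its call for mtDNA B6 was lost without activated replicate 4 or 5 or resting replicate 2, 3, 5 or 6 (adjusted p 0.0553 to 0.105) and in DESeq2 (adjusted p = 0.0965). In the second table the calls of both haplotypes were lost (adjusted p = 0.181 and 0.0604). Mylip, for a ubiquitin ligase that lowers lipoprotein uptake, fell (log2 fold changes -1.42, SE 0.20, adjusted p = 2.56e-06, and -1.91, SE 0.21, adjusted p = 4.61e-08), as did Gramd1a, for a sterol transfer protein of the endoplasmic reticulum (-1.20, SE 0.15, adjusted p = 4.46e-07, and -1.40, SE 0.15, adjusted p = 4.45e-08).

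No gene of efflux, esterification and oxysterols rose. Of 7 tested, 5 fell for mtDNA B6 and 4 for mtDNA NZB, where 24.5% and 28.4% of all genes fell, and the median log2 fold changes were -0.90 and -0.81. Abcg1, whose transporter exports cholesterol and which is a target of the liver X receptors, went from 35.4 to 50.4 CPM at rest to 8.91 to 13.5 CPM after activation in mtDNA B6 cells (log2 fold change -1.87, SE 0.14, adjusted p = 8.6e-11) and changed by -2.01 in mtDNA NZB cells (SE 0.15, adjusted p = 4.88e-11). Abca1, for the related transporter, had 1 to 10 UMI counts per group and was not tested. Soat1 and Soat2, the cholesterol acyltransferase genes, passed in neither haplotype (Soat1 0.32, SE 0.20, and -0.21, SE 0.22, adjusted p = 0.194 and 0.441; Soat2 -0.07, SE 0.32, and -0.37, SE 0.35, adjusted p = 0.876 and 0.396). Cyp27a1, for sterol 27-hydroxylase, and Apoe, for a lipid carrier of macrophages, fell most (Cyp27a1 -4.68, SE 0.53, adjusted p = 1.09e-07, and -4.63, SE 0.55, adjusted p = 1.45e-07; Apoe -3.24, SE 0.26, adjusted p = 4.02e-10, and -2.88, SE 0.27, adjusted p = 4.52e-09). The 5 myeloid markers, all detected in every group, fell with them, from a median sum of 1472 to 25.8 CPM in mtDNA B6 cells and from 829 to 48.6 CPM in mtDNA NZB cells, and their part in the fall of Cyp27a1 and Apoe was not tested.

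Between haplotypes at rest, Hmgcs1 was higher in mtDNA NZB cells (log2 fold change 0.75, SE 0.21, adjusted p = 0.0469), and this was the only one of the 6 tested members to pass. Over all genes 1.9% (201) were higher and 0.861% (91) lower in resting mtDNA NZB cells. These numbers depended on single libraries, being 0 and 0 without resting mtDNA NZB replicate 5 or resting mtDNA B6 replicate 4, 0 and 2 without resting mtDNA B6 replicate 1, 2 and 6 without its replicate 3, 20 and 7 without its replicate 5, 158 and 369 without resting mtDNA NZB replicate 6, and 366 to 447 and 112 to 152 without resting mtDNA NZB replicate 1, 3 or 4. Over the 21 libraries described below they were 242 and 420. Insig1 (0.88, SE 0.26, adjusted p = 0.06) and Cyp51 (1.29, SE 0.45, adjusted p = 0.0992) did not pass, nor did Sqle (-0.03, SE 0.24, adjusted p = 0.971), Fdps (0.05, SE 0.15, adjusted p = 0.915) and Lss (-0.12, SE 0.30, adjusted p = 0.972). None of the 15 other synthesis enzymes passed at rest.

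The resting mtDNA NZB libraries did not stand together. Hmgcs1 was at 54.4, 84.7, 72.9, 56.0, 174.6 and 107.6 CPM in replicates 1 to 6, the 84.7 CPM of replicate 2 resting on 5 UMI counts. Insig1 was at 28.0, 0, 31.6, 32.7, 88.4 and 51.4 CPM in the same order. Cyp51 was at 2.34, 33.9, 4.03, 3.08, 21.1 and 12.05 CPM. For these genes replicates 5 and 6 lay above every resting mtDNA B6 library. Hmgcs1 in replicate 3 and Insig1 in replicate 4 also lay above the range of resting mtDNA B6 cells. The other values of replicates 1, 3 and 4 lay within it. For Insig1 the top of that range was 32.1 CPM, in resting mtDNA B6 replicate 4. The other resting mtDNA B6 libraries held 21.6 to 24.8 CPM of Insig1. All of these lay under mtDNA NZB replicates 1, 3 and 4. Relative to the mean log2 CPM of resting mtDNA B6 cells, replicate 5 was higher by 1.67 for Hmgcs1, 2.51 for Cyp51 and 1.85 for Insig1, and replicate 6 by 0.98, 1.74 and 1.07.

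The same libraries were high for some pathway genes and not for others. Stard4 was at 49.5 and 43.4 CPM in replicates 5 and 6, near the 25.9 to 50.4 CPM of activated mtDNA NZB cells, and at 14.1 to 18.7 CPM in replicates 1, 3 and 4. Msmo1 was at 22.9 and 22.1 CPM in replicates 5 and 6 and at 7.28 to 10.1 CPM in replicates 1, 3 and 4. Fdps too lay above every resting mtDNA B6 library in replicates 5 and 6, at 68.7 and 73.1 CPM, which is 0.45 and 0.53 above the resting mtDNA B6 mean on the log2 scale. Ebp, in contrast, differed from that mean by -0.20 and -0.24, Pmvk by -0.13 and -0.66, and Nsdhl by -0.33 and -0.39. Sqle and Acat2 were high in replicate 5 (0.90 and 1.23) and not in replicate 6 (-0.30 and 0.15). Of the 21 tested synthesis genes with Insig1, 13 lay above every resting mtDNA B6 library in replicate 5 and 9 in replicate 6, whereas 33.4% and 28.8% of all genes did so. In replicates 1, 3 and 4 the numbers were 3, 2 and 3 of 21, against 17.4%, 17.2% and 17.0% of all genes, and in the shallow replicate 2 it was 8 of 21, against 25.4%.

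**Figure D3:**
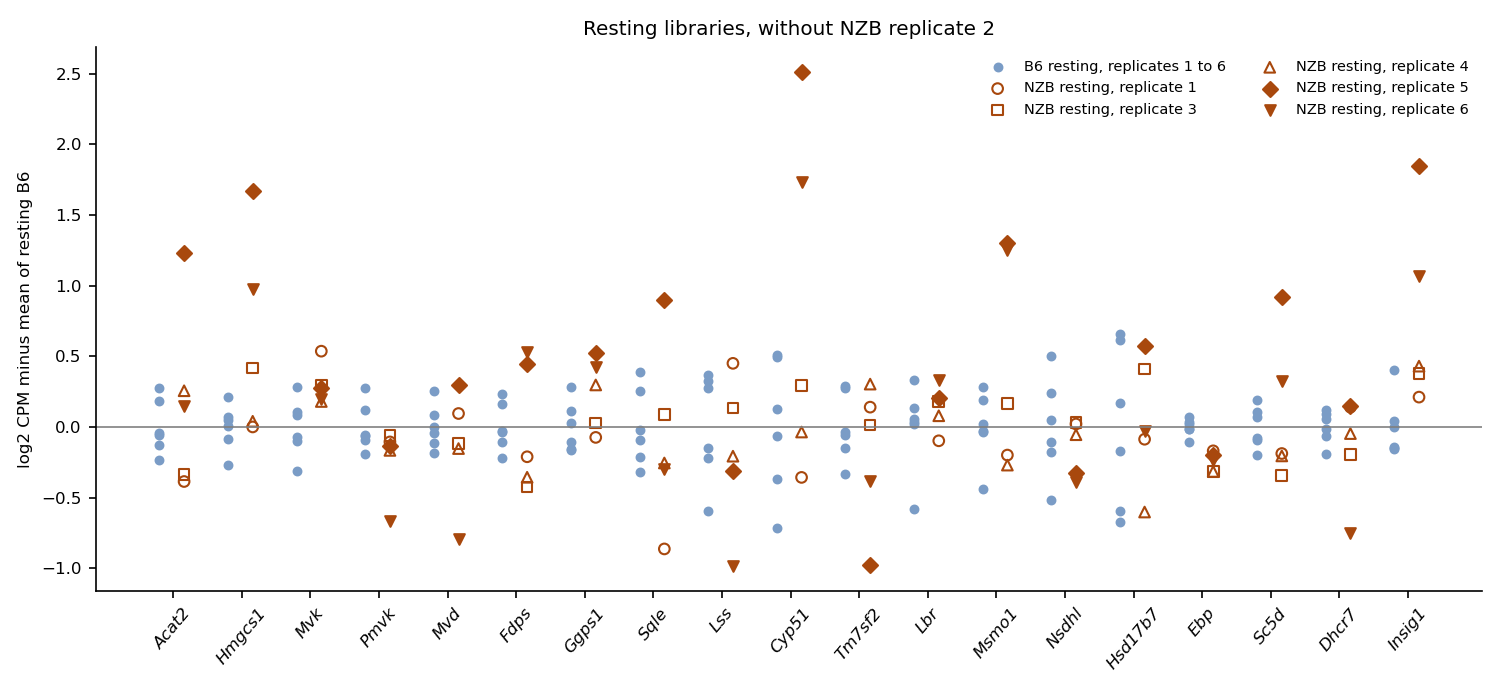
Log2 CPM of each resting library except mtDNA NZB replicate 2 minus the mean of the 6 resting mtDNA B6 libraries (y axis) for the 6 tested members and 13 of the 15 other enzymes in pathway order, with Insig1 last. Filled blue circles are mtDNA B6 libraries and orange symbols mtDNA NZB libraries, of which replicates 5 and 6 are filled; these lie highest for Hmgcs1, Cyp51, Msmo1 and Insig1 and near 0 or lower for Pmvk, Nsdhl and Ebp.

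The call at rest turned on these libraries. Without resting mtDNA NZB replicate 5 the log2 fold change was 0.41 for Hmgcs1 (adjusted p = 0.283), 0.67 for Cyp51 (adjusted p = 0.579) and 0.52 for Insig1 (adjusted p = 0.347). Without replicate 6 it was 0.69 for Hmgcs1 (adjusted p = 0.0629), 1.10 for Cyp51 (adjusted p = 0.185) and 0.83 for Insig1 (adjusted p = 0.0715). Without replicate 1 all 3 passed (0.89, adjusted p = 0.014, 1.54, adjusted p = 0.0339, and 1.00, adjusted p = 0.0266), as they did without replicate 4, and Insig1 also passed without replicate 2 (adjusted p = 0.0449) or 3 (adjusted p = 0.0363). The call of Hmgcs1 was also lost when any single library of either mtDNA B6 group, or activated mtDNA NZB replicate 1, 2, 3 or 4, was left out, and in DESeq2 (0.74, adjusted p = 0.0658). When 3 libraries were left out (activated mtDNA NZB replicate 6 and resting mtDNA NZB replicates 2 and 6), leaving 21, Insig1 passed (0.88, adjusted p = 0.0428) and Hmgcs1 did not (0.69, adjusted p = 0.066).

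**Figure D4:**
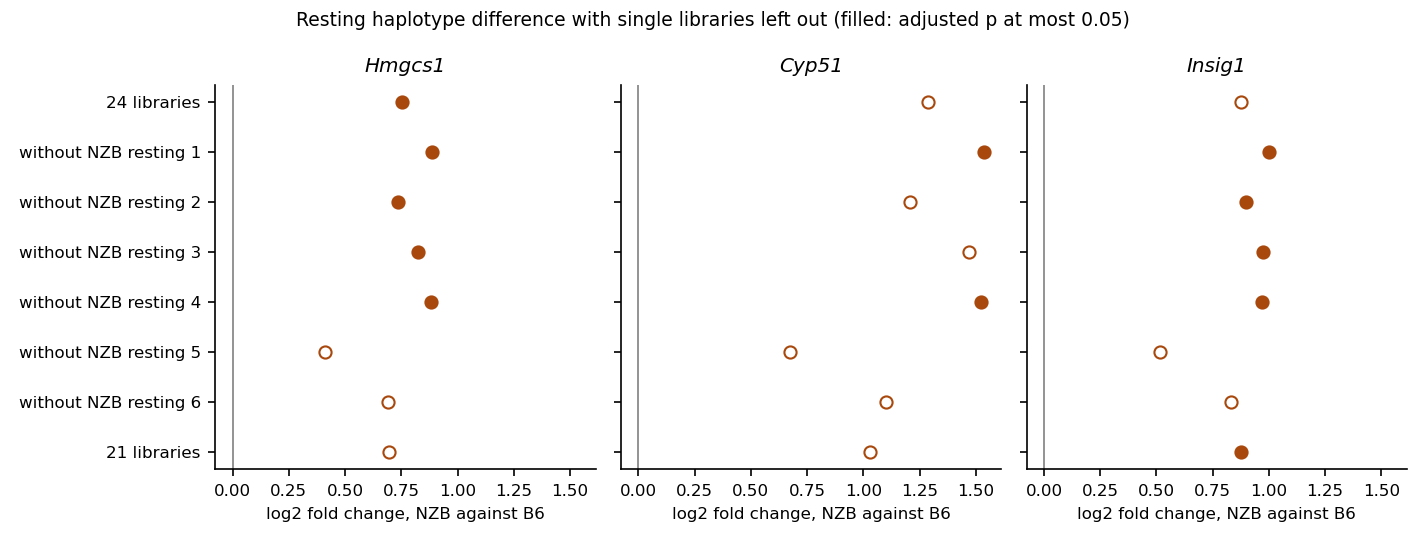
Log2 fold change of resting mtDNA NZB against resting mtDNA B6 cells (x axis) for Hmgcs1, Cyp51 and Insig1 with all 24 libraries, without each resting mtDNA NZB library in turn and over 21 libraries. Filled points have an adjusted p of at most 0.05; the values are lowest without replicate 5.

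Other values that moved with replicates 5 and 6 were as follows. Replicate 6 held 20320 CPM of neutrophil and granulocyte precursor markers and 3673 CPM of erythroid markers, whereas replicate 5 held 406 and 241 CPM, within the range of replicates 1, 3 and 4 for the erythroid markers (92.3 to 320 CPM) and under it for the granulocyte markers (536 to 895 CPM). The 4 activation markers summed to 226 CPM in replicate 5 and 287 CPM in replicate 6, against 93.8 to 186 CPM in the other resting mtDNA NZB libraries and 85.0 to 214 CPM in resting mtDNA B6 libraries. B cell markers summed to 230 and 220 CPM, against 543 to 1218 CPM in the other resting mtDNA NZB libraries and 223 to 1053 CPM in resting mtDNA B6 libraries. CD8 T cell markers summed to 38.5 and 38.1 CPM, against 65.2 to 142 CPM in replicates 1, 3 and 4 and 52.3 to 111 CPM in resting mtDNA B6 libraries. T cell markers summed to 2261 CPM in replicate 6, the lowest of the 24 libraries. The part of these cells or of prior activation in the levels of Hmgcs1, Cyp51 and Insig1 was not tested.

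The libraries also fell into 3 sets of 8 by the ratio of the total of a second deposited count table to the UMI total, at 1.88 to 1.96, 2.11 to 2.24 and 2.68 to 2.80. Resting mtDNA NZB replicates 2, 4, 5 and 6 and resting mtDNA B6 replicates 5 and 6 were in the set of the highest ratios. Within it, Hmgcs1 averaged 50.8 CPM over the 2 mtDNA B6 libraries and 105.7 CPM over the 4 mtDNA NZB libraries, although mtDNA NZB replicate 4 in that set was at 56.0 CPM. In the set of intermediate ratios it averaged 56.6 CPM over 4 mtDNA B6 libraries and was 54.4 CPM in the 1 mtDNA NZB library. Insig1 averaged 23.3 and 43.2 CPM in the first of these sets and 24.9 and 28.0 CPM in the second, and Cyp51 3.90 and 17.5 CPM and 3.07 and 2.34 CPM. The mtDNA NZB averages of the first set include the shallow replicate 2. There Cyp51 was at 33.9 CPM on 2 UMI counts, Hmgcs1 at 84.7 CPM on 5, and Insig1 had no count. The set of the lowest ratios held no resting mtDNA B6 library and 5 of the 6 activated ones. The remaining activated mtDNA B6 library was in the intermediate set, with 4 of the resting ones. Rest and activation of mtDNA B6 cells thus nearly coincided with the sets and cannot be fully told apart from them. The activation calls of Hmgcs1, Fdps, Sqle and Cyp51 with mtDNA B6 stayed in all 36 alternatives, the set as a term among them. With the set as a term, the resting log2 fold change was 0.68 for Hmgcs1 (adjusted p = 0.168), 0.83 for Insig1 (adjusted p = 0.169) and 1.10 for Cyp51 (adjusted p = 0.258).

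After activation the haplotypes were close. The log2 fold change of activated mtDNA NZB against activated mtDNA B6 cells was 0.05 for Hmgcs1 (SE 0.19), -0.04 for Sqle (SE 0.20), 0.27 for Fdps (SE 0.14), -0.20 for Lss (SE 0.27), 0.06 for Cyp51 (SE 0.38) and 0.04 for Insig1 (SE 0.27), and every adjusted p was 1. No gene passed in this comparison (0%) of 10566 tested in edgeR or 25030 in DESeq2, while 327 and 352 of these had an unadjusted p under 0.05. Without resting mtDNA NZB replicate 2, 1 of 10702 genes passed, downward, in edgeR. The ranges of the 6 libraries overlapped for each of these members, for example 110.8 to 129.5 and 118.3 to 166.8 CPM for Fdps, the member with the smallest unadjusted p (0.0634).

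The response to activation was also compared between haplotypes. It was smaller in mtDNA NZB cells for Hmgcs1 by 0.70 on the log2 scale (SE 0.28, unadjusted p = 0.0199, adjusted p = 0.263) and for Cyp51 by 1.22 (SE 0.59, unadjusted p = 0.0469, adjusted p = 0.345), and more negative for Insig1 by 0.83 (SE 0.37, unadjusted p = 0.0346, adjusted p = 0.318), none of which passed. Fdps (0.22, SE 0.20, adjusted p = 0.653), Sqle (-0.01, SE 0.31, adjusted p = 0.998) and Lss (-0.08, SE 0.40, adjusted p = 0.973) did not pass either. Of all genes 0% passed in edgeR (0 of 10566, with 1512 at an unadjusted p under 0.05), and 1 of 25030 in DESeq2. Over the 21 libraries 95 of 10826 genes passed upward and 18 downward, none of them a member. The resting libraries enter both this difference and the comparison at rest.

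Genes were ranked by Pearson's r with the mean z-score of the 6 tested members over 23 libraries, without resting mtDNA NZB replicate 2. That mean followed Hmgcs1, Sqle, Fdps and Cyp51 (r = 0.871 to 0.956) and not Lss (r = 0.208) or Insig1 (r = -0.268), so likeness to it is mostly likeness to those 4. The first were Ndfip1 (r = 0.930), Suv39h1 (r = 0.927), Lfng (r = 0.919), Acat2 (r = 0.918) and Pfkp (r = 0.914), of which Acat2, for an acetoacetyl-CoA thiolase, belongs to the pathway. This order follows mainly the step from rest to activation, which the libraries share. Once group means were subtracted, Klf16 (r = 0.906), Rheb (r = 0.892), Fbxo34 (r = 0.890), Ccny (r = 0.889) and Slc38a2 (r = 0.883) stood first of 9883 genes ranked. The pathway genes Msmo1, Stard4 and Srebf2 stood at ranks 285 (r = 0.728), 821 (r = 0.606) and 3768 (r = 0.159). With group means subtracted, Insig1 followed the mean as well (r = 0.847) and Lss did not (r = -0.338). Over all 24 libraries, 1 of the first 5 genes stayed among the first 5, and 3 did with group means subtracted. These values describe the libraries and carry no test.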

How the data were processed

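RNA of 24 Tconv libraries was measured by bulk MARS-seq. Per the study's methods, reads were trimmed with cutadapt (reads under 30 bases dropped), mapped with STAR to the last 1000 bases of transcripts on GRCm39 (Ensembl release 106), counted with htseq-count, and collapsed by UMI with a correction for saturation. The UMI counts deposited by the authors are whole numbers without any scaling. They also deposited a table of larger counts that the sources used here do not describe. The tables hold 1 column that fits no sample, which was left out. The labels give 30 ng of RNA and another isolation kit than the methods.

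Groups came from the sample labels. Counts were scaled by TMM, filtered with filterByExpr and fitted over the 4 groups with edgeR 4.0.16 (quasi-likelihood test, R 4.3.3), with Benjamini-Hochberg adjustment over 10566 genes. A gene was called at an adjusted p of at most 0.05, without a fold limit. The SE is the size of the log2 fold change divided by the square root of F. For some genes the p-value of the test is larger than this SE implies. An example is Tm7sf2 on activation with mtDNA NZB (unadjusted p = 0.694 in edgeR). The fit was tested on simulated data. Replicates of a group differed beyond sampling noise (smallest chi-square over its degrees of freedom, 2.97). Gene positions are from GRCm39 (GENCODE). The averages tabulated by the study are met by 21 of the 24 libraries, which served as an alternative beside DESeq2 1.42.0, other scaling, filters, covariates and leaving out each library.

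The members and gene lists were chosen with earlier results of these data known. Outside the members, the text names Srebf1, Srebf2, Scap, Insig2, Abca1, Abcg1 and, from each list, the 2 tested genes with the highest and the 2 with the lowest mean log2 fold change over both activation comparisons. Some genes that this rule names are not reported here, though counts over their lists include them. Msmo1, Acat2, Ebp and Nsdhl were named after their values were seen.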

Additional observations from a re-analysis of the deposited data

Results flagged for a closer look

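Over the 6 tested members and 4 groups, 24 groups of 6 libraries were examined for a library far from the rest, a check that chance alone flags in about 1 of 20 groups. Insig1 in resting mtDNA B6 replicate 4 was at 32.1 CPM, where the gap to the nearest library was 0.693 of the range of the group. Without that library the fall of Insig1 on activation in mtDNA B6 cells was -0.59 on the log2 scale (adjusted p = 0.0783).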

How the results depend on the processing

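The number of members called was 4 or 5 on activation with mtDNA B6 and 3 to 5 with mtDNA NZB over the alternatives tried, and 0 after activation and for the difference of responses in every one. At rest the 1 call became 0 with a log2 fold change of at least 1, with median-of-ratios size factors, in the second count table, over the 12 libraries of the groups compared, with a replicate block by title number, with the library set as a term over 24 or 21 libraries, and in DESeq2, and 0 to 3 when single libraries were left out. The cause was not tested. Deviations of libraries with the same label number (9 pairs of resting and activated libraries of 1 haplotype) correlated at -0.222 to 0.307, with 3 of 9 over 0.1. All 3 were among the 5 mtDNA B6 pairs (0.191, 0.307 and 0.139), while the 4 mtDNA NZB pairs lay at -0.222 to 0.009. The main fit did not take the numbers as pairs in either haplotype. With the replicate block by label number 5 members were called with mtDNA B6 and 4 with mtDNA NZB, and over 21 libraries with this block, added after the data were seen, 5 and 5. The block ended the calls of Insig2 (adjusted p = 0.0957) and Lrp8 (0.137) with mtDNA B6 and of Lrp8 with mtDNA NZB (0.101), and over 21 libraries these (0.066, 0.105 and 0.0746) and those of Ggps1 (0.0843) and Nfyb (0.129) with mtDNA NZB. The fit that joins the 21 libraries and the library set was added then too.

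Only values that did not pass the test changed sign. On activation with mtDNA B6, the library set gave Tm7sf2 0.069, Sp1 0.48 and Soat2 0.49, with 21 libraries Sp1 0.23 and Soat2 0.57, and the second table gave Soat2 0.077. Leaving out single libraries gave Tm7sf2 -0.13 to 0.064, Sp1 -0.41 to 0.022, Soat2 -0.38 to 0.11 and Scap -0.0061 to 0.095. On activation with mtDNA NZB, Lss was -0.062 over 21 libraries and -0.11 with the set as well, and Sp1 was 0.46 over 21 libraries with the label block. Srebf2 there was -0.038 with the stricter filter, -0.032 in the second table, -0.13 over 21 libraries, -0.0039 with the title block, -0.065 with the set, -0.15 over 21 libraries with the set, -0.042 with the label block over 21 libraries, -0.0041 in DESeq2, and -0.061 to 0.12 without single libraries. At rest, 21 libraries gave Sqle 0.049, Fdps -0.12 and Lss 0.068, the set gave Fdps -0.043, both together Fdps -0.17 and Lss 0.19, and the second table Lss 0.029. Single libraries left out gave Sqle -0.35 to 0.13, Fdps -0.10 to 0.15 and Lss -0.35 to 0.053. After activation, the set gave Hmgcs1 -0.0065, Cyp51 -0.12 and Insig1 -0.061, with 21 libraries Cyp51 -0.025 and Sqle 0.000204, and the second table Insig1 -0.058. Single libraries left out gave Hmgcs1 -0.037 to 0.10, Sqle -0.15 to 0.023, Cyp51 -0.031 to 0.21 and Insig1 -0.082 to 0.17. For the difference of responses, Sqle was 0.000545 in the second table, 0.36 with the label block, 0.029 with the title block, 0.11 with the set, 0.056 over 21 libraries with the set and 0.33 with the label block, and Cyp51 was 0.32 in the last of these. Single libraries left out gave Sqle -0.17 to 0.31 and Lss -0.26 to 0.14.

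Depth limits the genes with few counts, Idi1, Fdft1, Lss and Cyp51, and every value of resting mtDNA NZB replicate 2.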
